A study of Mus musculus with 23 samples.

Results

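The UDP-glucuronosyltransferases (UGTs) and glutathione S-transferases (GSTs) of mouse liver were described across P2ry13 knockout (KO) and wild-type (WT) animals of both sexes. A gene was a member if the single gene symbol of its probe set began with Ugt1, Ugt2 or Ugt3, or with Gsta, Gstk, Gstm, Gsto, Gstp, Gstt, Gstz or Mgst followed by a digit. The rule found 29 of 19147 named genes, each measured by 1 of the 38385 probe sets. They were 9 UGT genes and 20 GST genes. The UGT genes were Ugt2a3, Ugt2b1, Ugt2b34, Ugt2b36, Ugt2b37, Ugt2b38, Ugt2b5, Ugt3a1 and Ugt3a2, and 0 genes of the Ugt1 family matched. The GST genes were 2 of the alpha class (Gsta3, Gsta4), 1 kappa (Gstk1), 6 mu (Gstm2 to Gstm7), 2 omega (Gsto1, Gsto2), 1 pi (Gstp3), 4 theta (Gstt1 to Gstt4), 1 zeta (Gstz1) and 3 microsomal (Mgst1 to Mgst3).

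P2ry13, also called GPR86, encodes a G protein-coupled receptor for ADP, and the study asked how its ablation changed gene expression in the liver. RNA was taken from livers of 6 female KO, 6 female WT, 6 male KO and 5 male WT mice, with 1 array per animal. The labels name neither the design of the deleted allele nor the strain, age or diet, and do not say whether KO and WT mice were littermates. The values were log2 intensities, in which a difference of 1 is a doubling of the linear signal. A level was compared between groups for the same probe set only, since probe sets differ in how strongly they bind.

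UGTs attach the sugar of UDP-glucuronic acid to bilirubin, steroids, bile acids and drugs inside the endoplasmic reticulum, and the conjugates leave in bile or urine. GSTs attach the tripeptide glutathione to reactive compounds such as epoxides and lipid peroxidation products, mostly in the cytosol, and the microsomal enzymes do so in membranes. Liver is rich in both classes, and in rodents many liver genes of this kind are under the control of the sex-dependent pattern of growth hormone release.

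The members lay on 9 chromosomes, with 7 on chromosome 5, 7 on chromosome 3 and 4 on chromosome 10. The 7 on chromosome 5 formed the Ugt2 cluster, in the order Ugt2b34, Ugt2b1, Ugt2b36, Ugt2b5, Ugt2b37, Ugt2a3 and Ugt2b38 by RefSeq annotation (GRCm38.p6). Within it Ugt2b37 and Ugt2b38 gave opposite sex differences, and their upstream sequences are shown because they were nearly the same. Of the 29 members, 26 had a RefSeq promoter window, and the 250 bases before each annotated start were compared over 325 pairs. Aligned end to end, the median identity of a pair was 44.8%, and the highest, between Ugt2b37 and Ugt2b38, was 84.8%. With the ends left free to overhang, the windows of Ugt2b37 (chr5:87254789-87255038) and Ugt2b38 (chr5:87424204-87424453), both on the minus strand, were identical at 224 of 238 aligned positions (94.1%), with 12 mismatches and 2 gap positions. Ugt2b5 (chr5:87140341-87140590), the gene before Ugt2b37 in the cluster, was 83.9% identical to Ugt2b37 over 236 positions and 85.1% identical to Ugt2b38 over 249. Ugt2b1 (chr5:86926504-86926753) was 48.2% identical to Ugt2b37 aligned end to end, near the median of all pairs. The 4 windows are printed 5′ to 3′ from RefSeq, GRCm38.p6, minus strand, and capitals mark letters that differ from the compared window or face a gap in it (Ugt2b37 against Ugt2b38, Ugt2b38 and Ugt2b5 each against Ugt2b37, and none marked in Ugt2b1). The overhanging ends were not compared and are in lower case.
Ugt2b37: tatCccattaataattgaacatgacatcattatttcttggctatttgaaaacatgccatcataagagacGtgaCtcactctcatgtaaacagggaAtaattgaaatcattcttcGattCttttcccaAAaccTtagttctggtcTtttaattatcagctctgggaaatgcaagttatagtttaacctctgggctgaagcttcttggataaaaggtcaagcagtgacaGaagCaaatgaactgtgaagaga
Ugt2b38: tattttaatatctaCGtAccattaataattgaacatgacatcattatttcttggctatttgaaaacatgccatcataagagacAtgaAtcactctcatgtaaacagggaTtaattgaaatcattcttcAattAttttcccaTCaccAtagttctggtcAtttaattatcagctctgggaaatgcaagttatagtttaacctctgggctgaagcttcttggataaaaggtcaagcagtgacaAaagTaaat
Ugt2b5: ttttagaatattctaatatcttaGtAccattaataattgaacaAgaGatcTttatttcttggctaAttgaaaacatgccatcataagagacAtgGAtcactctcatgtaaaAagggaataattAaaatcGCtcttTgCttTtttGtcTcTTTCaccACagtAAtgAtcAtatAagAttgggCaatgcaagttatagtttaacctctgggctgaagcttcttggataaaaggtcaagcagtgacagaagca
Ugt2b1: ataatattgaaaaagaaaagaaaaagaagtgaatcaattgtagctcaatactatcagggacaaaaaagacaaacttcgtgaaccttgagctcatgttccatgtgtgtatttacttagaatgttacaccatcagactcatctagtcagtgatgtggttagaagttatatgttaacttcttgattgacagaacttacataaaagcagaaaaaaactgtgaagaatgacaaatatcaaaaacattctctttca
No source used here holds the probe sequences of the array, and how far these probe sets tell such similar genes apart was not tested.

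The windows were also searched on both strands for 4 short motifs. The half-site GTTAAT of HNF1, a liver transcription factor, was in the windows of Gsta3, Ugt2a3 and Ugt3a1, 3 of 26 members, against 6.43% of 32851 RefSeq windows. The core TGACNNNGC of the antioxidant response element, bound by Nrf2, was in the windows of Gsta3, Gstm5 and Mgst1, 3 of 26, against 10.2% of all windows. The TATA box letters TATAAA were in 3 of 26 (Gstm7, Mgst2 and Ugt3a1), against 12.4%, and the STAT motif TTCNNNGAA was in 0 of 26, against 7.02%. A match or its lack in this window describes letters only and is no evidence of binding.

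The arrays were alike as a whole, with medians of the linear intensity between 19.5 and 21.1 and correlations between arrays from 0.983 to 0.995. P2ry13 averaged 5.15 ± 0.06 in female KO livers and 6.27 ± 0.17 in female WT livers (SD, n = 6 each). It averaged 5.19 ± 0.11 in male KO livers (SD, n = 6) and 5.99 ± 0.22 in male WT livers (SD, n = 5), and it fell in both sexes, by 1.12 and 0.80 on the log2 scale (limma, adjusted p = 6.07e-09 in females and 2.12e-05 in males). The KO and WT arrays did not overlap in either sex. As a guide to signal without transcript, 4 Y-linked probe sets read 2.53 to 3.69 on the female arrays, and Xist read 4.14 to 5.22 on the male arrays. P2ry13 in KO livers, at 5.06 to 5.22 in females and 5.07 to 5.34 in males, lay near the highest male Xist reading. The size of its fall is therefore uncertain. Gstt4 read 3.09 to 3.60 over all 23 arrays, within the Y-linked range, and gives no usable measurement here. Mgst2 read 4.07 to 4.65, below the highest male Xist reading on all 23 arrays. So did Ugt2b38 on 11 of the 12 female arrays and Ugt2b37 on 8 of the 11 male arrays, so the sizes of the differences of these 3 genes are uncertain. The hepatocyte markers Alb and Ttr, 2 of 5 listed, were bright in every group, with summed linear intensities of 30477 to 32370 in female KO, 31353 to 32473 in female WT, 29400 to 30712 in male KO and 29725 to 31564 in male WT livers.

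Loss of P2ry13 changed 0 of the 29 genes past the threshold in either sex. In females 0 of 29 passed (limma, Benjamini-Hochberg adjusted p under 0.05 over all 38385 probe sets), where 0.0547% of all probe sets passed. In males 0 of 29 passed, against 0.0313% of all probe sets, and for KO minus WT averaged over the sexes 0 of 29, against 0.0808%. At an unadjusted p under 0.05 the counts were 3 members in females, 1 in males and 2 for the average, against 5.87%, 6.14% and 6.91% of all probe sets. The median difference of the 29 was 0.04 in females and -0.06 in males, against 0.00 and -0.01 over all named genes.

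The intervals limited how large an undetected change could be. In females the 95% interval of KO minus WT lay within a 1.2-fold change for 16 of 29 members and within 1.5-fold for 27. In males it lay within 1.2-fold for 14 and within 1.5-fold for 27. The genes beyond 1.5-fold were Ugt2b37 and Ugt2b38 in both sexes, with intervals of -0.38 to 0.84 and -1.43 to -0.03 in females and of -0.88 to 0.40 and -0.90 to 0.57 in males. The 18 GST genes other than Gstt4 and Mgst2 were within 1.5-fold in both sexes. Gstt4 and Mgst2 are among the 27, but at background their narrow intervals bound nothing. Of the 9 UGT genes 8 had a positive estimate in females and 1 in males, none past the threshold. The Ugt2 genes read on 1 array share its RNA, so their signs are not independent of each other.

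**Figure D1:**
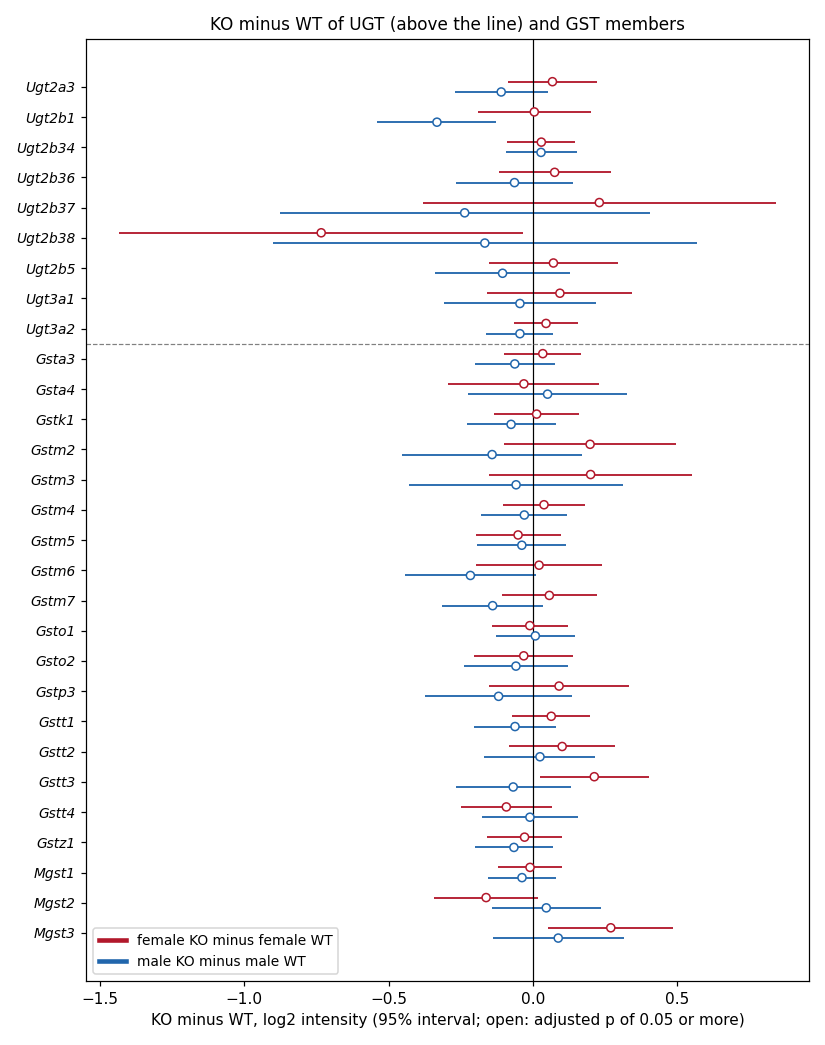
KO minus WT on the log2 intensity scale (x axis) for the 9 UGT genes above the dashed line and the 20 GST genes below it, in females (red) and males (blue), with 95% intervals. All points are open because no adjusted p was under 0.05, and Ugt2b37 and Ugt2b38 have the widest intervals.

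Among the UGT genes the smallest unadjusted p belonged to Ugt2b1, a member of the steroid- and drug-conjugating Ugt2b group, in males. It read 12.27, 12.58 and 12.83 (lowest, median and highest of 6) in male KO livers, against 12.84, 12.87, 12.92, 12.94 and 12.95 in the 5 male WT livers. The 2 groups did not overlap, a separation seen in 0.555% of all probe sets in this comparison. The difference was -0.33 (SE 0.10), with an unadjusted p of 0.00268 and a limma adjusted p of 0.534, so it did not pass. In females Ugt2b1 read 11.47, 11.72 and 12.06 (KO) and 11.44, 11.80 and 11.96 (WT), and the groups overlapped. The other 2 UGT genes with the smallest p in males were Ugt2a3, at -0.11 (adjusted p = 0.875), and Ugt2b5, at -0.11 (adjusted p = 0.931).

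In females the smallest p among the UGT genes was that of Ugt2b38. It read 3.22, 4.04 and 4.51 in female KO livers and 4.09, 4.47 and 6.05 in female WT livers (lowest, median and highest of 6). The groups overlapped, and all 6 KO arrays and 5 of the 6 WT arrays lay below the highest male reading of Xist. The difference was -0.73 (SE 0.34, limma adjusted p = 0.848), and -0.47 (adjusted p = 0.911) without female WT replicate 3, the array at 6.05. Ugt2a3 and Ugt3a2, next by p, differed by 0.07 and 0.05. No probe set of a UGT gene separated female KO from female WT arrays, a separation that 0.229% of all probe sets showed.

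Among the GST genes Mgst3, a membrane enzyme related to leukotriene C4 synthase, had the smallest p in females. It read 8.81, 9.06 and 9.52 in female KO livers and 8.75, 8.84 and 8.95 in female WT livers, a difference of 0.27 (SE 0.11, limma adjusted p = 0.825). Gstt3, of the theta class, followed at 0.21 (SE 0.09, adjusted p = 0.836), with 10.50, 10.63 and 10.86 in female KO and 10.25, 10.47 and 10.58 in female WT livers. The KO arrays of both genes reached above the WT arrays but overlapped them. Mgst2 read 4.18, 4.34 and 4.51 (KO) and 4.07, 4.57 and 4.65 (WT), near background.

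In males the smallest p among the GST genes belonged to the mu-class gene Gstm6. It read 10.35, 10.42 and 10.50 in male KO livers, against 10.41, 10.56, 10.66, 10.66 and 10.92 in male WT livers, a difference of -0.22 (SE 0.11, limma adjusted p = 0.819). Gstm7 read 9.88, 10.10 and 10.22 (male KO) against 10.09, 10.13, 10.25, 10.28 and 10.35 (male WT), a difference of -0.14 (adjusted p = 0.842). Gstk1, a kappa-class enzyme of mitochondria and peroxisomes, differed by -0.08 (adjusted p = 0.919). The KO arrays of these 3 genes overlapped the WT arrays.

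Mgst2 and the 6 Gstm genes lie on chromosome 3, the chromosome that also carries P2ry13 and the male-biased steroid enzyme gene Hsd3b5, which stand between Mgst2 and the Gstm cluster in RefSeq order. Of these 7 members 0 changed in KO livers of either sex. Hsd3b5 itself averaged 5.43 ± 0.63 in female KO and 9.16 ± 0.98 in female WT livers (SD, n = 6 each) and fell by 3.73 (SE 0.31, limma adjusted p = 1.7e-08).

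The difference of the KO effects between females and males was tested directly. It passed for 0 of 29 members, against 0.0104% of all probe sets, and 2 had an unadjusted p under 0.05, against 5.14% of all probe sets. These were Ugt2b1, at 0.34 (SE 0.14, unadjusted p = 0.0221), and Gstt3, at 0.28 (SE 0.13, unadjusted p = 0.0451), both with a limma adjusted p of 0.962. The estimate was positive for 23 of 29 members, with a median of 0.10, against 0.01 over all named genes.

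The sexes differed for 11 of the 29 genes in at least 1 genotype. In KO livers 9 members differed between females and males, 7 higher and 2 lower in females, against 4.85% of all probe sets (3.21% higher and 1.64% lower). In WT livers 10 differed, 6 higher and 4 lower, against 4.25% of all probe sets (2.54% higher and 1.71% lower). Named genes were called more often, at 6.74% in KO and 5.71% in WT, and named genes brighter than the dimmest UGT member at 12.6% and 10.4%. The members' shares were 31.0% in KO and 34.5% in WT livers. The arrays of the sexes did not overlap for 10 members in KO livers and 9 in WT livers, against 3.38% and 3.86% of all probe sets.

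The few UGT calls were mostly lower in females, and the GST calls mostly higher. Calls over all probe sets were also mostly higher in females, 1234 of 1862 in KO and 974 of 1632 in WT livers. In KO livers 33.3% of UGT and 30% of GST genes were called, against 6.74% of named genes. In WT livers these shares were 44.4% and 30%, against 5.71%. Of the 9 UGT genes 1 was higher and 2 were lower in females in KO livers, and 1 was higher and 3 were lower in WT livers. Of the 20 GST genes 6 were higher and 0 lower in KO livers, and 5 were higher and 1 lower in WT livers. Averaged over its 9 genes, the UGT class read 10.27 ± 0.16 in female KO, 10.29 ± 0.21 in female WT, 10.57 ± 0.18 in male KO and 10.68 ± 0.20 in male WT livers. Averaged over its 20 genes, the GST class read 9.65 ± 0.10 in female KO, 9.60 ± 0.09 in female WT, 9.45 ± 0.04 in male KO and 9.49 ± 0.05 in male WT livers (SD over arrays, n = 6, and 5 for male WT). These averages describe the arrays and were not tested. The UGT average includes Ugt2b38, near background in females. It had the largest sex difference of the 9 genes, at -4.02 in KO and -3.46 in WT livers. The median female minus male difference of the 9 UGT genes was -0.04 in KO and -0.09 in WT livers. That of the 20 GST genes was 0.06 and 0.08. The GST average includes Gstt4 and Mgst2, which read near background on every array.

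**Figure D2:**
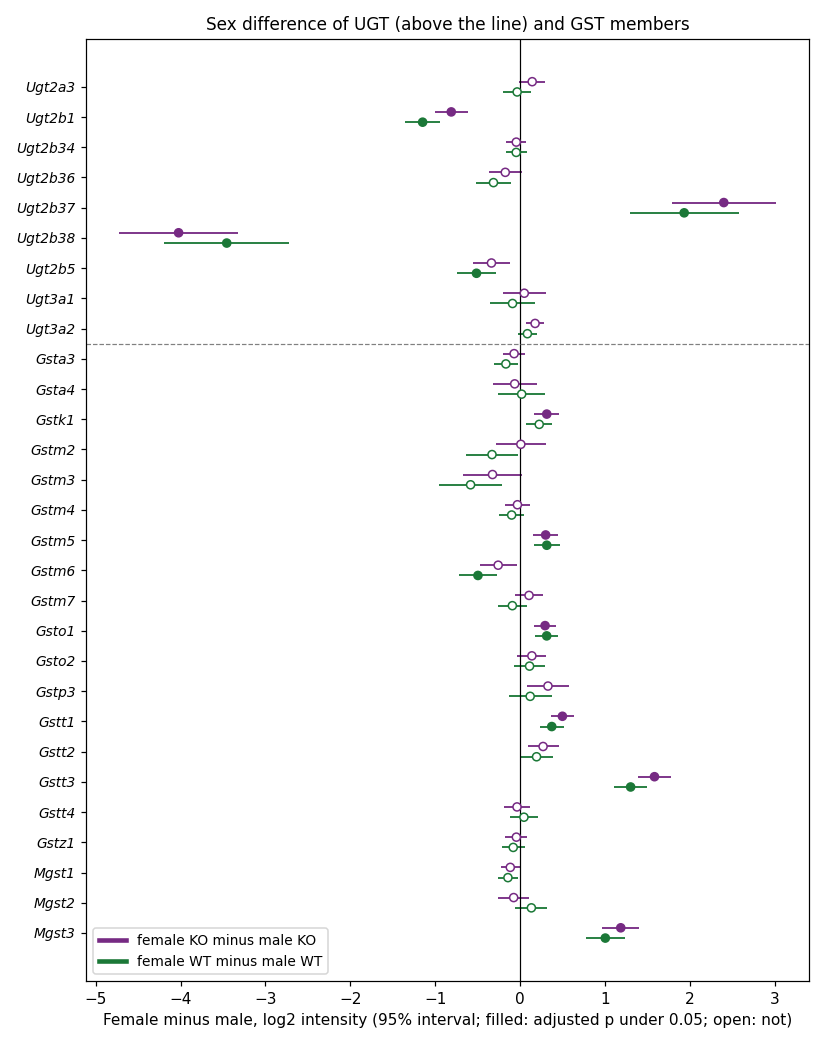
Female minus male log2 intensity (x axis) with 95% intervals for the 9 UGT genes above the dashed line and the 20 GST genes below it, in KO livers (purple) and WT livers (green). Filled points have an adjusted p under 0.05: Ugt2b38 reached -4.02 in KO and -3.46 in WT livers, while the filled GST points lie to the right of 0 except Gstm6 in WT livers.

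Ugt2b38 had the largest measured sex difference of the 29 in both genotypes. It read 3.22, 4.04 and 4.51 in female KO livers (lowest, median and highest) and 6.80, 8.13 and 8.75 in male KO livers. In WT livers it read 4.09, 4.47 and 6.05 in females, against 7.03, 7.45, 8.64, 8.78 and 8.98 in males. Every female array lay below every male array. Its measured signal was 16.3-fold lower in females in KO livers (log2 difference -4.02, SE 0.34, limma adjusted p = 2.46e-09) and 10.97-fold lower in WT livers (-3.46, SE 0.36, adjusted p = 1.68e-07). With 11 of the 12 female arrays near background, the sizes of these folds are uncertain. The 95% intervals of the log2 difference were -4.72 to -3.32 in KO and -4.19 to -2.72 in WT livers.

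Ugt2b37, its close relative in the cluster, ran the other way. It read 6.49, 7.22 and 8.47 in female KO livers and 4.03, 4.84 and 5.54 in male KO livers. In WT livers it read 6.23, 6.86 and 7.90 in females, against 4.72, 4.72, 4.79, 5.47 and 5.73 in males. The lowest female array was above the highest male array in each genotype. Its measured signal was 5.28-fold higher in females in KO livers (2.40, SE 0.30, limma adjusted p = 2.67e-06) and 3.82-fold higher in WT livers (1.93, SE 0.31, adjusted p = 0.00019). With 8 of the 11 male arrays near background, the sizes of these folds too are uncertain. The 95% intervals were 1.79 to 3.01 in KO and 1.29 to 2.57 in WT livers. Ugt2a3, the gene between these 2 in the cluster, differed by 0.14 in KO livers and -0.04 in WT livers and passed in neither (adjusted p = 0.361 and 0.883).

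Ugt2b1 was lower in females in both genotypes. Its readings did not overlap between the sexes, and it was 1.75-fold lower in KO livers (-0.81, SE 0.10, limma adjusted p = 1.19e-06) and 2.22-fold lower in WT livers (-1.15, SE 0.10, adjusted p = 6.21e-09). Ugt2b5 read 11.61, 11.997 and 12.22 in female KO and 12.14, 12.35 and 12.47 in male KO livers. In WT livers it read 11.36, 11.99 and 12.12 in females, against 12.29, 12.36, 12.43, 12.44 and 12.59 in males. Its sexes overlapped in KO and not in WT livers, and it differed by -0.34 in KO (SE 0.11, adjusted p = 0.0748) and by -0.51 in WT livers (SE 0.11, adjusted p = 0.00613). The change of this sex difference between genotypes was 0.18 (SE 0.16, adjusted p = 0.99), so KO and WT were not shown to differ. Of the other UGT genes Ugt3a2, from a family whose human enzymes use other sugar donors, came closest to a call in KO livers, at 0.18 (adjusted p = 0.0571), and differed by 0.09 in WT livers (adjusted p = 0.487). With 1 mean per gene tested in place of each probe set, its adjusted p in KO livers was 0.0239. Ugt2b36 differed by -0.17 in KO and -0.31 in WT livers (adjusted p = 0.38 and 0.0726). Ugt2b34 and Ugt3a1, of the Ugt3a2 family, passed in neither genotype, with differences of -0.09 to 0.05.

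**Figure D3:**
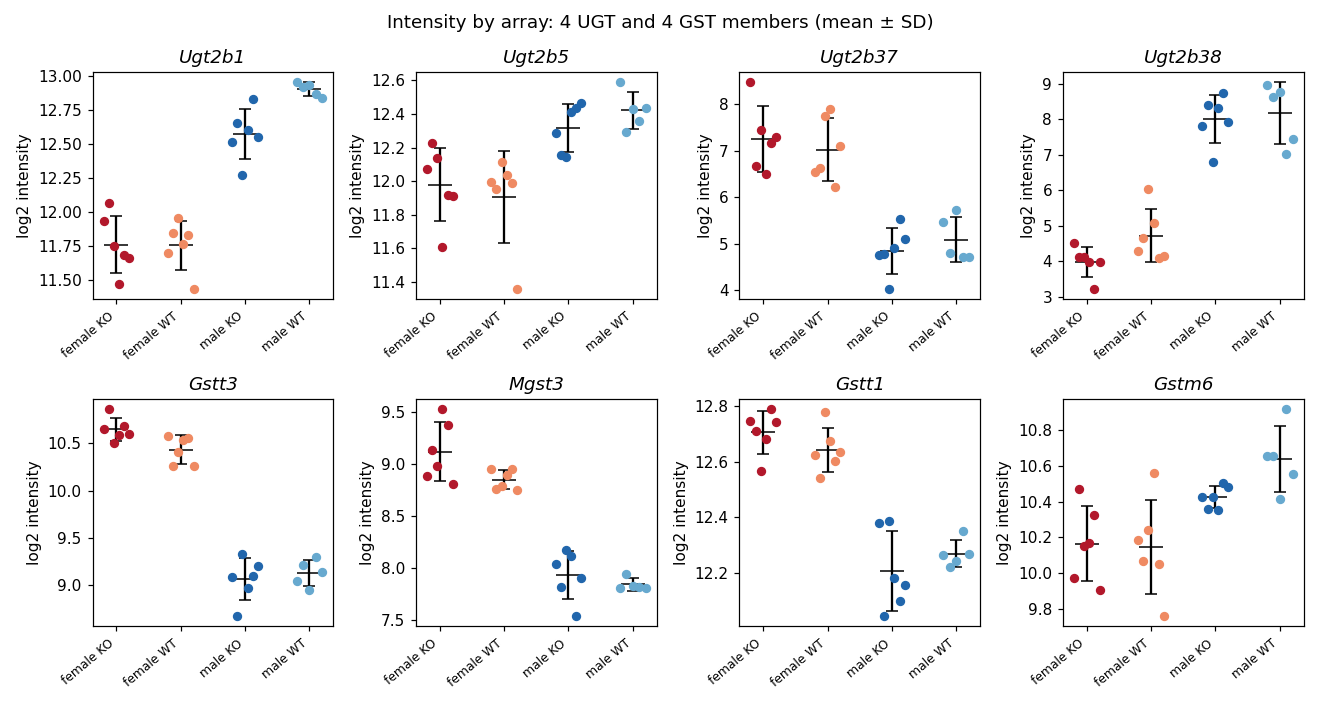
Log2 intensity (y axis, a separate scale per gene) on every array for 4 UGT genes in the upper row and 4 GST genes in the lower row, by group; bars give the mean ± SD (n = 6, and 5 for male WT). Female arrays of Ugt2b37, Gstt3, Mgst3 and Gstt1 lie above all male arrays, those of Ugt2b1 and Ugt2b38 lie below, and Ugt2b5 and Gstm6 overlap in 1 or both genotypes.

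Gstt3 had the largest sex difference of the 20 GST genes in both genotypes. It read 10.50, 10.63 and 10.86 in female KO livers and 8.68, 9.10 and 9.33 in male KO livers. In WT livers it read 10.25, 10.47 and 10.58 in females, against 8.95, 9.04, 9.14, 9.22 and 9.30 in males. Female arrays were all above male arrays, by 2.996-fold in KO livers (1.58, SE 0.09, limma adjusted p = 6.68e-13) and 2.47-fold in WT livers (1.30, SE 0.10, adjusted p = 2.13e-10). Its neighbour Gstt1, a theta enzyme that acts on small halogenated compounds, showed a smaller difference of 0.50 in KO livers (SE 0.07, adjusted p = 6.98e-06) and 0.37 in WT livers (SE 0.07, adjusted p = 0.000972). Gstt1 read 12.57, 12.73 and 12.79 in female KO livers and 12.05, 12.17 and 12.39 in male KO livers. It read 12.54, 12.63 and 12.78 in female WT livers, against 12.22, 12.24, 12.26, 12.27 and 12.35 in male WT livers, with no overlap. Gstt2, in the same cluster, differed by 0.27 in KO and 0.19 in WT livers and did not pass (adjusted p = 0.0852 and 0.297).

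Mgst3 read 8.81, 9.06 and 9.52 in female KO livers and 7.54, 7.97 and 8.17 in male KO livers. It read 8.75, 8.84 and 8.95 in female WT livers, against 7.81, 7.81, 7.82, 7.83 and 7.95 in male WT livers. Every female array was above every male array, by 2.28-fold in KO livers (1.19, SE 0.11, limma adjusted p = 7.05e-09) and 2.01-fold in WT livers (1.004, SE 0.11, adjusted p = 5.52e-07). The other microsomal genes did not pass: Mgst1 differed by -0.12 in KO and -0.14 in WT livers (adjusted p = 0.284 and 0.178).

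A further 3 GST genes were called at about 1.2-fold. Gsto1, an omega-class enzyme that reduces dehydroascorbate, read 10.72, 10.85 and 11.07 in female KO and 10.48, 10.57 and 10.66 in male KO livers. It read 10.74, 10.89 and 10.95 in female WT livers, against 10.48, 10.51, 10.56, 10.60 and 10.67 in male WT livers, and was higher in females by 0.29 in KO and 0.31 in WT livers (limma adjusted p = 0.00415 and 0.00439). Its female and male arrays did not overlap. Gstk1 read 11.44, 11.55 and 11.72 in female KO and 11.11, 11.25 and 11.36 in male KO livers, without overlap, and was higher in females there by 0.31 (SE 0.07, adjusted p = 0.00672). In WT livers it read 11.28, 11.56 and 11.68 in females, against 11.26, 11.27, 11.29, 11.38 and 11.39 in males, a difference of 0.23 that did not pass (adjusted p = 0.0943), and the 2 differences were not shown to differ (adjusted p = 0.993). Gstm5 is described with its cluster.

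Of the 6 mu-class genes 1 was higher in females in KO livers, and 1 was higher and 1 lower in WT livers. These shares, 16.7% in KO and 33.3% in WT livers, compare with 6.74% and 5.71% of named genes. Of named genes brighter than the dimmest UGT member 12.6% and 10.4% were called, so the KO share was near that background. Gstm5, the first in gene order, was higher in females by 0.30 in KO and 0.31 in WT livers (SE 0.07 each, limma adjusted p = 0.00981 and 0.0124). It read 8.06, 8.30 and 8.41 in female KO and 7.86, 8.01 and 8.05 in male KO livers, and 8.16, 8.34 and 8.43 in female WT livers, against 7.83, 7.97, 8.01, 8.04 and 8.21 in male WT livers. The sexes overlapped in WT livers, and without male WT replicate 5 the WT difference was 0.27 with an adjusted p of 0.0514. Gstm6 was lower in females in WT livers by 0.50 (SE 0.11, adjusted p = 0.00661), with 9.76, 10.13 and 10.56 in females, against 10.41, 10.56, 10.66, 10.66 and 10.92 in males. In KO livers it read 9.91, 10.16 and 10.47 in females and 10.35, 10.42 and 10.50 in males, a difference of -0.26 that did not pass (adjusted p = 0.196). The test of the change between genotypes gave 0.24 (SE 0.15, adjusted p = 0.979). Gstm3 came near the threshold in WT livers, at -0.58 (SE 0.18, adjusted p = 0.0651), and Gstm2, Gstm4 and Gstm7 lay between -0.33 and 0.11 over both genotypes.

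**Figure D4:**
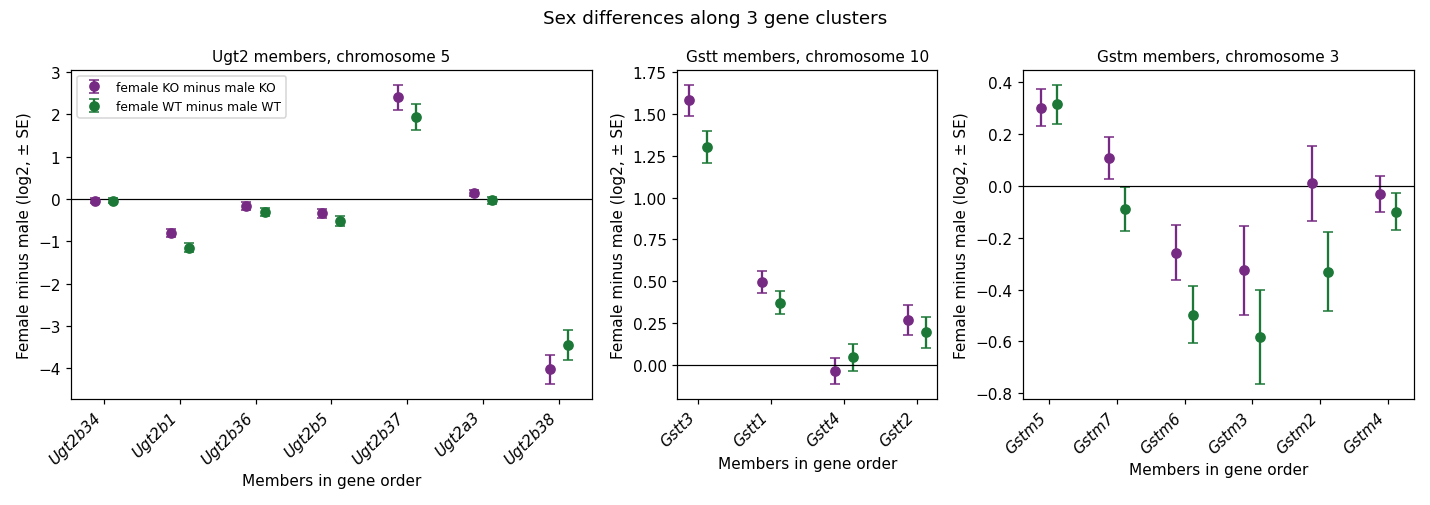
Female minus male log2 intensity ± SE (y axis, a separate scale per panel) of members in RefSeq gene order along the Ugt2 cluster (chromosome 5), the Gstt cluster (chromosome 10) and the Gstm cluster (chromosome 3), in KO (purple) and WT (green) livers. Ugt2b37, at 2.40 and 1.93, and Ugt2b38, at -4.02 and -3.46, point in opposite directions on either side of Ugt2a3.

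The remaining GST genes did not pass between the sexes in either genotype. Gsta3, which conjugates aflatoxin epoxide in mice, differed by -0.07 in KO and -0.17 in WT livers. Gsta4, which conjugates the lipid peroxidation product 4-hydroxynonenal, differed by -0.06 and 0.02. Gstz1, the maleylacetoacetate isomerase of tyrosine breakdown, differed by -0.04 and -0.08. Gsto2 and Gstp3 differed by 0.14 and 0.33 in KO livers and by 0.11 and 0.12 in WT livers.

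The sex differences measured in KO livers and in WT livers came from separate animals. Of the 29 members 8 passed in both genotypes, all 8 with the same sign, 1 in KO only (Gstk1) and 2 in WT only (Ugt2b5 and Gstm6). Over the 29 genes the differences in the 2 genotypes had a Pearson correlation of 0.987 and a Spearman correlation of 0.891, a description across genes of a cluster that share arrays, and 22 had the same sign. Of all probe sets, 64.5% had the same sign, and 919 passed in both, which is 49.4% of the KO calls and 56.3% of the WT calls.

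Readings of Ugt2b37 and Ugt2b38 were also compared array by array within a sex, after subtracting each group's mean. The pairs of genes were chosen after their values had been seen, and p-values were adjusted over 64 relations. In each sex 1 of the 2 genes lay near background, Ugt2b38 in females and Ugt2b37 in males. Male arrays that were high for one tended to be high for the other. In the 11 male arrays Pearson's r was 0.81 and Spearman's rho 0.85 (permutation p = 0.00841 and 0.00529, adjusted 0.0449 and 0.0381), and r was 0.67 without the 2 arrays farthest from the median. In the 12 female arrays r was 0.63 and rho 0.66 (permutation p = 0.0334 and 0.0306, adjusted 0.127 and 0.115), which did not pass. A further 2 of the 6 Ugt2 pairs passed in males. Ugt2b1 and Ugt2b38 had r 0.78 and rho 0.88 in males (permutation p = 0.00026 and 0.0002, adjusted 0.00832 and 0.0064, and r 0.79 without the 2 farthest). Ugt2b1 and Ugt2b37 had r 0.80 and rho 0.81 in males (permutation p = 0.00627 and 0.00469, adjusted 0.0365 and 0.0381), but r was 0.46 without the 2 farthest arrays, so much of this relation rests on them. In females Ugt2b1 had r 0.52 with Ugt2b38 and 0.23 with Ugt2b37, and neither passed (adjusted permutation p = 0.191 and 0.644). Ugt2b1 and Ugt2b5 had r 0.89 and rho 0.83 in females (permutation p = 0.00052 and 0.00302, adjusted 0.0111 and 0.0322, and r 0.84 without the 2 farthest). In males this pair had r 0.48 and rho 0.36 and did not pass (adjusted permutation p = 0.361 and 0.458). Without the 2 farthest male arrays its r was -0.10.

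**Figure D5:**
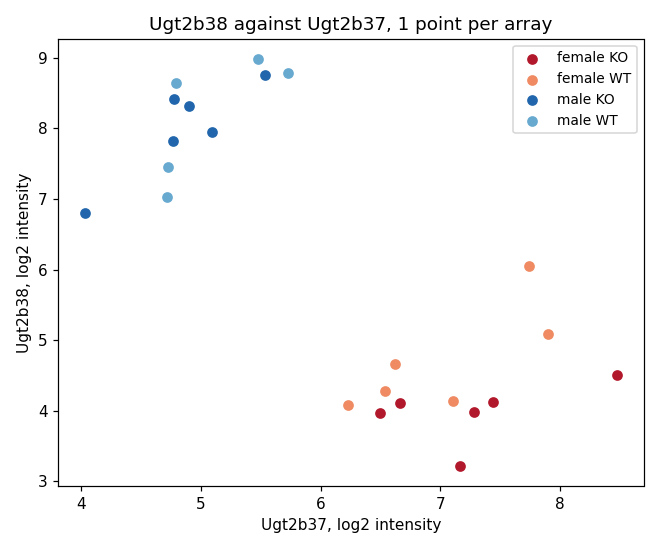
Log2 intensity of Ugt2b38 (y axis) against Ugt2b37 (x axis), 1 point per array, coloured by group. Male arrays lie at the upper left and female arrays at the lower right, and within males the points run upward (r = 0.81 after subtracting group means).

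Hsd3b5, chosen after its values were seen as a gene whose level follows the male pattern, had the highest r of the 64 relations. In the 11 male arrays its correlation with Ugt2b37 was r 0.92 and rho 0.93 (permutation p = 1e-05, the smallest that the resampling can give, and 2e-05, adjusted 0.00064 and 0.00128, and r 0.82 without the 2 farthest). With Ugt2b38 it was r 0.80 and rho 0.79 (adjusted permutation p = 0.0203 and 0.0381, and r 0.66 without the 2 farthest). With Ugt2b1 it was r 0.88 and rho 0.82 (adjusted permutation p = 0.0195 and 0.0515, and r 0.68 without the 2 farthest). Ugt2b37 lay near background on 8 of the 11 male arrays, and whether its probe set also reads Ugt2b38 transcript was not tested. In females 0 of 11 relations of Hsd3b5 with the sex-different members passed, and r was 0.65 for Ugt2b37 and 0.58 for Ugt2b38. In the mu class 5 of 15 gene pairs passed in females by r and 3 of these also by rho, the 3 pairs among Gstm2, Gstm6 and Gstm7. For these 3, r was 0.82 to 0.87 and rho 0.82 to 0.85 (adjusted permutation p = 0.0195 to 0.0197 and 0.0322), and r was 0.76 to 0.80 without the 2 farthest arrays. Gstm3 with Gstm6 and with Gstm7 had r 0.81 each but did not pass by rho (0.68 and 0.69, adjusted permutation p = 0.112 each), and r was 0.62 and 0.73 without the 2 farthest. In males 0 of 15 pairs passed. Readings of 1 array share an RNA sample and a labelling reaction, whose part in these relations was not tested.

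Genes that supply UDP-glucuronic acid were lower in females where they passed. Of 4 measured genes of supply and deconjugation, 1 was lower in females in KO livers and 3 in WT livers, and 0 were higher. The shares called were 25% in KO and 75% in WT livers, against 6.74% and 5.71% of named genes. Ugdh, which makes UDP-glucuronic acid, was lower in females by 0.38 in KO livers (SE 0.09, limma adjusted p = 0.0118) and 0.62 in WT livers (SE 0.10, adjusted p = 0.000128). It averaged 11.05 ± 0.18 in female KO and 11.44 ± 0.07 in male KO livers, and 10.76 ± 0.25 in female WT and 11.39 ± 0.08 in male WT livers (SD, n = 6, and 5 for male WT). Slc35d1, a carrier of UDP-glucuronic acid into the endoplasmic reticulum, and Slc35d2, a nucleotide sugar carrier, were lower in females in WT livers by 0.48 and 0.31 (adjusted p = 0.0399 and 0.0141). KO minus WT passed for 0 of the 4 in either sex, and Ugdh had the smallest p in females, at 0.29 (adjusted p = 0.71).

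Of 17 measured genes of glutathione synthesis and breakdown, 1 was lower in females in KO livers and 2 in WT livers, and 0 were higher. These shares, 5.88% in KO and 11.8% in WT livers, were near the background. Named genes were called at 6.74% and 5.71%, and those brighter than the dimmest UGT member at 12.6% and 10.4%. Gclc, the catalytic subunit of the rate-limiting enzyme, was lower in females in KO livers by 0.44 (SE 0.07, limma adjusted p = 0.000222). Gsr, glutathione reductase, and Chac2, which degrades glutathione, were lower in females in WT livers by 0.29 and 0.47 (adjusted p = 0.00847 and 0.0324). In KO against WT 0 of 17 passed in either sex, with Ggt5, a gamma-glutamyl transferase, nearest in females at -0.24 (adjusted p = 0.615). Of 8 measured Nrf2 targets, the quinone reductase Nqo1 was higher in females by 1.203 in KO and 1.11 in WT livers (adjusted p = 2.48e-06 and 2.6e-05), and Gclc was the 1 that was lower, in KO livers. Of 8 regulators measured, 1 passed: Nr1i3, the receptor CAR that induces conjugating enzymes, was higher in females by 0.60 in KO and 0.54 in WT livers (adjusted p = 4.51e-05 and 0.00051). The shares called between the sexes were 25% of targets in KO and 12.5% in WT livers, and 12.5% of regulators in each genotype. KO against WT passed for 0 of these 8 targets and 0 of these 8 regulators in either sex.

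Of 7 efflux transporters of conjugates, Abcg2, which exports sulfated and other conjugates, was lower in females by 1.33 in KO and 1.41 in WT livers (limma adjusted p = 3.07e-11 and 3.74e-11). Abcc1 and Abcc4 were higher in females in WT livers by 0.40 and 0.44 (adjusted p = 0.00529 and 0.0468), and KO against WT passed for 0 of 7 in either sex. Of 19 other conjugating enzymes measured, 2 rose in female KO livers, the sulfotransferases Sult2a1 and Sult2a2, by 3.44 and 5.00 (adjusted p = 1.27e-08 and 6.07e-09), and 0 passed in males. The share in females was 10.5% of this list, against 0.0547% of all probe sets. Between the sexes 8 of the 19 were higher and 3 lower in females in KO livers, and 5 were higher and 2 lower in WT livers. The shares called between the sexes were 57.9% of these enzymes in KO and 36.8% in WT livers. They were 14.3% and 42.9% of the efflux transporters, against 6.74% and 5.71% of named genes. Nat8, an N-acetyltransferase that acts on the cysteine conjugates formed from glutathione conjugates, was lower in females by 3.84 in KO and 3.92 in WT livers (adjusted p = 6.21e-13 and 1.67e-12).

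Genes that mark the male and the female pattern in mouse liver, chosen with earlier results of these data known, give the setting of these differences. All 8 measured male-biased genes and all 9 female-biased genes differed between the sexes in both genotypes. The lists were chosen for such a difference, so these counts are no test. In female livers, KO against WT, 2 of the 8 male-biased genes fell: Hsd3b5, and Cyp2d9 by 0.80 (limma adjusted p = 2.42e-05). Of the 9 female-biased genes 1 rose, Sult2a1, which is also counted above among the conjugating enzymes. In males 0 passed. Over all probe sets 0.0547% passed in females and 0.0313% in males. Estimates in females were negative for 7 of the 8 male-biased genes (median -0.56) and positive for all 9 female-biased genes (median 0.64). In each list 6 genes had an unadjusted limma p under 0.05 in females, against 5.87% of all probe sets, and 0 had it in males. Female KO minus female WT was -0.73 for Ugt2b38, 0.23 for Ugt2b37, 0.00 for Ugt2b1, 0.21 for Gstt3 and 0.27 for Mgst3, none of which passed. For Ugt2b38, near background in both female groups, the value was -0.47 without female WT replicate 3. The summed linear intensity of the male-biased list was 11835 to 23370 in female KO and 14329 to 25802 in female WT livers, and 48808 to 55973 in male KO and 55314 to 57156 in male WT livers. Its medians were 13468 in female KO and 23153 in female WT livers. The sum of the female-biased list was 16049 to 21659 (median 18368) in female KO and 10228 to 17312 (median 12914) in female WT livers. In males it was 171 to 239 (KO) and 204 to 273 (WT).

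Among markers of other liver cell types, those of Kupffer cells differed most often between the sexes. Of all named genes 6.74% were called between the sexes in KO livers and 5.71% in WT livers. Of 5 Kupffer cell markers 4 were higher in females in KO livers and 3 in WT livers, with sums of 3723 to 4848 in female KO and 3575 to 4304 in female WT livers, and 2567 to 3508 in male KO and 2591 to 3358 in male WT livers. Of 5 stellate cell markers 1 was higher in females in KO livers (Col3a1, by 0.54), of 4 lymphocyte markers 1 was higher in both genotypes (Nkg7, by 0.41 in KO and 0.42 in WT livers), and of 4 exocrine pancreas markers 1 was lower in KO livers (Cela1, by 0.51). Of 5 sinusoidal endothelial, 4 cholangiocyte, 3 adipocyte and 2 hepatocyte markers 0 passed between the sexes, and KO against WT passed for 0 markers of any list in either sex. Cholangiocyte sums ranged from 46.7 to 149.7 and lymphocyte sums from 85.9 to 133.9 over all arrays. Adipocyte sums ranged from 39.8 to 57.9. For the dim cholangiocyte and adipocyte lists the lack of a call says little. In whole liver, fewer cells of a type and less RNA per cell cannot be told apart, and the part of these cells in the sex differences of the members was not tested.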

How the data were processed

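RNA of 23 mouse livers was measured on 1-colour arrays, with biotin-labelled cRNA, per the labels' protocols. The authors deposited a linear intensity for each probe set, and the submitters' processing notes name RMA; no source used here states its version or settings, the array's description or any date, slide or other batch. The intensities were converted to log2 without further scaling. Probe sets took their genes from the repository's platform annotation: 24478 had 1 symbol, 65 several and 13842 none here, and all 29 members were found in RefSeq (GRCm38.p6) by Entrez ID. A gene with several probe sets was read from the brightest by mean log2.

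Groups and replicate numbers came from the sample titles. 1 mean per group was fitted to all 38385 probe sets over all 23 arrays (limma 3.58.1, R 4.3.3, lmFit and eBayes), 6 comparisons were taken from this fit, and p-values were adjusted over all probe sets by Benjamini-Hochberg, with a threshold of 0.05. Two-sided permutation tests of correlations used 100000 resamples within groups. The limma fit, but not the tests of correlations, was also run on simulated arrays with known shifts in the female KO group. Promoter windows were aligned with Biopython 1.88, and figures drawn with matplotlib 3.10.9. Nothing says that replicates were prepared separately beyond being separate mice, and the number of arrays limits the precision. Alternatives were 2 other normalizations, a dim filter, array weights, an intensity trend, plain analysis of variance, the replicate number as a block, other sample sets and leaving out each array.

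Members that passed in any comparison were named with their values, at most 8 per class and comparison, and otherwise the 3 of a class with the smallest p. List genes were named where they passed, at most 4 per list, otherwise at most 2. The members, lists and pairs were chosen with earlier results of these data known.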

Additional observations from a re-analysis of the deposited data

Results flagged for a closer look

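Of 116 sets of readings (29 genes in 4 groups), 11 held an array whose gap to its nearest neighbour was large for the range of its group by Dixon's criterion, which chance alone gives in about 1 of 20 sets. Values are log2 intensities. Female WT replicate 6 was the lowest for Ugt2b5 at 11.36 (next 11.95), for Ugt3a2 at 11.78 (next 11.89) and for Gstk1 at 11.28 (next 11.54), and female WT replicate 4 was the lowest for Mgst2 at 4.07 (next 4.47). Female KO replicate 5 was the highest for Ugt3a2 at 12.03 (next 11.93).

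Male KO replicate 5 was the highest for Gsta3 at 13.78 (next 13.65) and for Gstz1 at 13.26 (next 13.12), and male KO replicate 6 was the lowest for Mgst2 at 4.32 (next 4.40). Male WT replicate 5 was the highest for Gstm2 at 8.04 (next 7.62), male WT replicate 3 was the highest for Mgst3 at 7.95 (next 7.83), and male WT replicate 6 was the lowest for Gstp3 at 7.72 (next 7.99).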

How the results depend on the processing

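Leaving out each array in turn kept the count of members called between the sexes at 9 to 10 in KO and 9 to 11 in WT livers, and at 0 in the other 4 comparisons. Probe sets called ranged from 16 to 29 for KO against WT in females, 9 to 21 in males (21 without male WT replicate 6), 23 to 39 for the average, 1447 to 1753 between the sexes in KO, 1257 to 1472 in WT livers and 4 to 5 for the difference of the KO effects. Among the named members' values with an array left out, 1 lost its call: Gstm5 in WT livers without male WT replicate 5 (adjusted p = 0.0514). With plain analysis of variance, adjusted, the probe sets called numbered 7 for females, 3 for males, 1209 between the sexes in KO, 765 in WT livers and 2 for the difference. Under it Ugt2b5 (adjusted p = 0.099), Gstm6 (0.13) and Gstm5 (0.0617) lost their WT sex calls. The members it called between the sexes numbered 10 in KO and 7 in WT livers. With the rule of the study's design text (plain analysis of variance, unadjusted p under 0.05 and a change over 20%) they numbered 397 for females, 582 for males, 242 for the average, 2707 between the sexes in WT livers and 1188 for the difference, and 1 member, Ugt2b1, met it in males and 1, again Ugt2b1, for the difference. No value that passed changed sign under any alternative run.

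The replicate numbers did not pair the arrays: the deviations of same-numbered arrays correlated over 0.1 in 1 of 6, 0 of 5, 0 of 6 and 2 of 5 pairs (females, males, KO sexes, WT sexes). With the replicate block the members called were 9 in KO and 10 in WT livers between the sexes and 0 elsewhere, and the probe sets called were 18, 13, 27, 1685, 1506 and 4 in the order given above. The dim filter left 19192 probe sets and 28 members, without Gstt4, and 11 members were called between the sexes in KO and 12 in WT livers. Averaging the probe sets of a gene left the members' differences as they were, since each has 1, but the adjustment then ran over genes: 10 members were called between the sexes in KO livers, with Ugt3a2 gained (adjusted p = 0.0239, against 0.0571), and 10 in WT livers. A fit on the compared groups alone has no separate value for the average and the difference, which use all 4 groups. Signal near background limits Gstt4, Mgst2, Ugt2b38 in females and Ugt2b37 in males.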
